A study of Mus musculus with 5 samples.

Results

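Chemokines are small secreted proteins that direct the movement of leukocytes, and chemokine receptors are the G protein-coupled receptors on the moving cells that read them. The genes described here are 38 chemokine and chemokine receptor genes, 26 ligands and 12 receptors, measured in livers labelled as overexpressing Fra-1. They were found on the arrays by the transcript accession of each probe. Of the 38 genes, 37 had a probe, with 41 probes in all, and Cxcl11 was not analysed here. The filter on dim probes left 30 genes, 20 ligands and 10 receptors, among 21494 features tested in all. The 7 genes whose probes were too dim to be tested were Ccl11, Ccl12, Ccl17, Ccl22, Cxcl2, Ccr1 and Ccr3.

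Fosl1 encodes Fra-1, which belongs to the FOS family and pairs with JUN proteins to form the transcription factor AP-1. Liver RNA of 4 Fra-1hep mice on a C57BL/6J background, described as overexpressing Fra-1 in hepatocytes alone, was labelled with Cy5, 1 mouse per array, and set against a Cy3-labelled pool of RNA from 5 C57BL/6J wt control mice. A further array reversed the dyes and used pooled Fra-1hep RNA in Cy3, called the swapped pool below. Fra-1hep and control mice alike had eaten a high-fat diet with 45% of its energy from fat since 4 weeks of age and were 26 to 28 weeks old. The promoter that drives the transgene and the mice that made up the Fra-1hep pool are not given in the sources used here. Every array used the same control pool, so the tests leave out the spread among control mice, and the swapped pool may hold no animal beyond the 4.

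A chemokine gradient selects cells by their receptors. CCL2 and some of its relatives call monocytes through CCR2. The interferon-inducible ligands CXCL9 and CXCL10 call T and NK cells through CXCR3, and ligands such as CXCL1 call neutrophils through CXCR2. In the liver, hepatocytes, Kupffer cells, endothelium and stellate cells can all make chemokines, and fat-laden liver is known for the monocytes that enter along the CCL2 axis. The comparison described here sets ligands that attract monocytes, lymphocytes and neutrophils beside each other and beside their receptors. The classes follow the textbook target cell, and several ligands, among them CCL3, CCL4 and CCL5, attract more than 1 kind of cell.

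Values are log2 ratios of Fra-1hep over control on each array, so -1 is a 2-fold lower level in the Fra-1hep liver. The difference in each gene is a limma coefficient over the 5 arrays ± its standard error, with p adjusted by Benjamini-Hochberg over all 21494 features and a threshold of 0.05. The share of spots well above background was 47.2% to 54.7% in the Fra-1hep channel and 47.7% to 61.5% in the control channel, highest in both on the array of mouse 1, which was alone on its slide. A spot well above background is said below to pass the background test of the scanner software. The Fosl1 probe failed it in the Fra-1hep channel on all 5 arrays and gave ratios from -0.37 to 0.12 on the 5 arrays. The overexpression in the labels was thus not seen at this probe, and Fra-1hep names the groups as the labels do. All 10 hepatocyte markers were well above background in both channels on some array.

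Chemokine ligands were mostly lower in Fra-1hep livers. Of the 20 ligands tested, 14 fell, 1 rose and 5 did not pass the test, where 15.4% of all features fell and 11.2% rose. The median difference over the 20 ligands was -0.78, against 0 over all features. Of the 10 receptors tested, 2 fell and 8 did not pass, with a median of -0.14. These counts describe the genes that passed the filter. Ccl3, Ccl7, Cxcl5, Xcl1 and Cxcr5 passed it through the control channel alone and Cxcr2 through the Fra-1hep channel alone. Among the 20 genes well above background on all arrays in both channels, 11 fell, 1 rose and 8 did not pass. In a refit under that stricter filter, 3131 of 18152 features fell and 2350 rose.

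**Figure D1:**
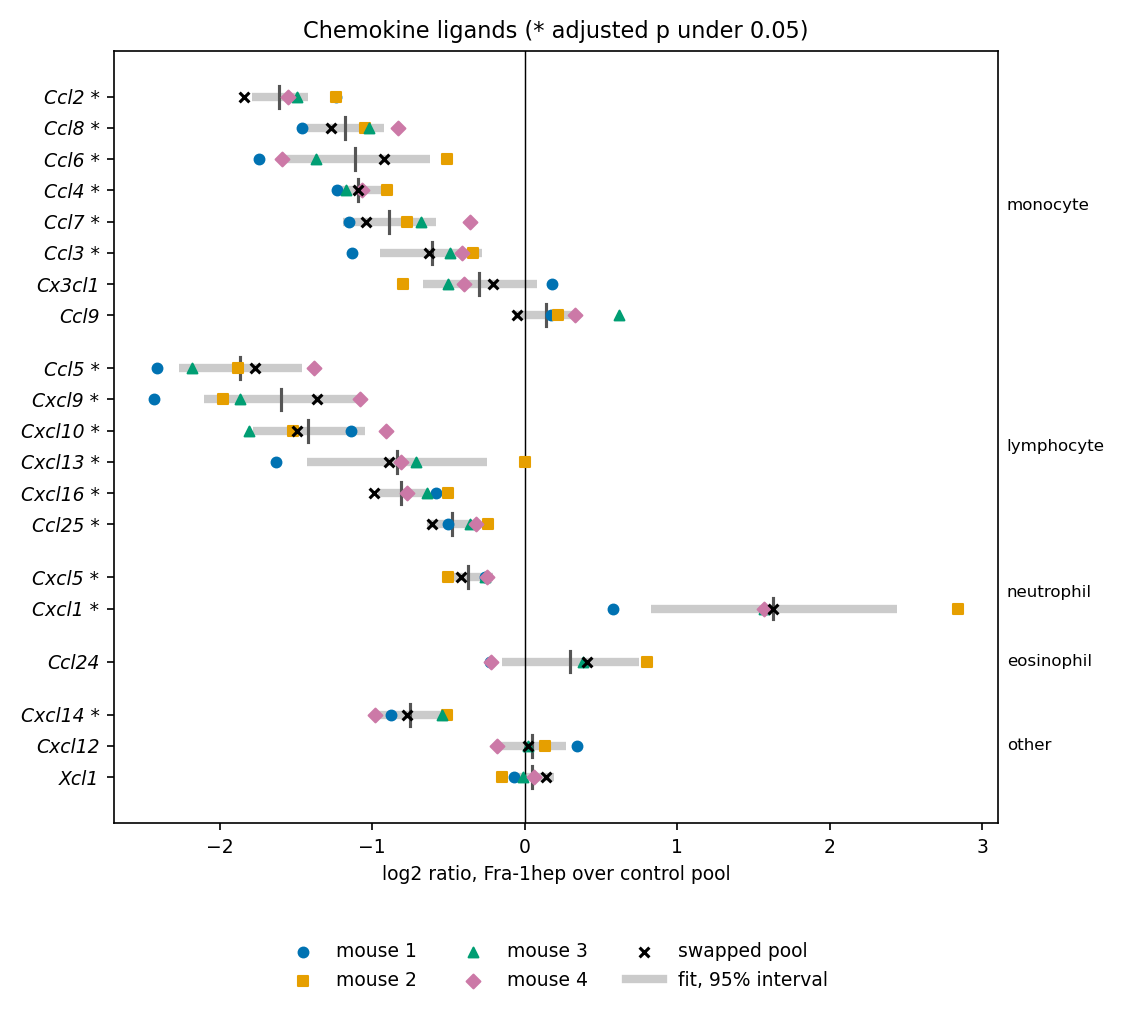
Log2 ratio of Fra-1hep over the control pool (x axis) for the 20 tested chemokine ligands (y axis), grouped by target cell. Coloured symbols are the 4 mice, crosses the swapped pool, vertical ticks the fitted difference and grey bars its 95% interval; asterisks mark an adjusted p under 0.05. Most monocyte and lymphocyte ligands lie left of 0 on all arrays, and Cxcl1 lies right of 0 on all 5.

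Of the 8 tested ligands that attract monocytes, 6 were lower, where 15.4% of all features were, and Ccl9 and Cx3cl1 did not pass. Among the 6, Ccl3 and Ccl7 passed the filter through the control channel alone. Ccl2, which encodes the main attractant of CCR2-bearing monocytes, gave ratios of -1.24, -1.24, -1.49 and -1.55 in mice 1 to 4, with -1.84 in the swapped pool. The normalized signal of its probe was 238 to 314 in the Fra-1hep channel and 634 to 852 in the control channel, with no overlap. The fitted difference was -1.61 ± 0.08, 3.05-fold lower (adjusted p = 5e-05). Ccl2 was lower on all 5 arrays, and the swapped pool gave the deepest ratio.

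Ccl7 and Ccl8 encode relatives of CCL2 that were also tested. The ratios of Ccl8 were -1.46, -1.05, -1.02 and -0.83 in mice 1 to 4, with -1.27 in the swapped pool, and the gene fell by 1.18 (SE 0.11, adjusted p = 0.000651). Ccl7 gave -1.15, -0.77, -0.68 and -0.36 in the 4 mice with -1.04 in the swapped pool, and fell by 0.89 (SE 0.13, adjusted p = 0.00393). Both were deepest in mouse 1 and shallowest in mouse 4. Both probes were dim: the Fra-1hep channel was well above background on 4 of 5 arrays for Ccl8 and on 2 of 5 for Ccl7. The background correction adds a constant to every signal, which shrinks the ratio of dim probes. With the scanner software's own processed signals the differences were -2.47 for Ccl8 and -3.40 for Ccl7. Ccl12, a further CCR2 ligand of mice, was not tested, with ratios between -0.42 and 0.11.

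Ccl3 and Ccl4, which encode inflammatory chemokines made by macrophages and T cells, were also lower. Ccl4 gave -1.23, -0.90, -1.17 and -1.07 in mice 1 to 4, with -1.09 in the swapped pool, and fell by 1.09 (SE 0.07, adjusted p = 0.000149). With processed signals its difference was -1.88. Its Fra-1hep signals of 112 to 162 lay below all control signals of 263 to 303. In Fra-1hep, Ccl3 failed the background test on all 5 arrays. Its ratios were -1.13, -0.34, -0.49 and -0.41 in mice 1 to 4, with -0.63 in the swapped pool. The fitted difference was -0.61 (SE 0.14, adjusted p = 0.0205). The control level was also set against a floor. This floor was whichever is higher on each array: the signal of the dim probe or the lowest signal counted as above background. Against the floor, Ccl3 was 1.51-fold lower. That value is not a minimum: it is -0.59 on the log2 scale, and mice 2 to 4 each fell by less. The call of Ccl3 ended when the standard error was enlarged for the spread of the 5 pooled control mice (adjusted p = 0.07).

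Ccl6 and Ccl9 encode a pair of rodent chemokines made by myeloid cells, and they went apart. Ccl6 gave -1.74, -0.51, -1.37 and -1.59 in mice 1 to 4, with -0.92 in the swapped pool. Its signal in mouse 2, 1213, was the highest of the Fra-1hep channel, against 426 to 929 on the other arrays and 1427 to 1779 in the control channel. Ccl6 fell by 1.11 (SE 0.21, adjusted p = 0.0095). Ccl9 gave 0.17, 0.22, 0.62 and 0.33 in the 4 mice with -0.05 in the swapped pool, a difference of 0.14 (95% interval -0.07 to 0.35) that did not pass. Without the swapped array Ccl9 was higher, by 0.34 (adjusted p = 0.0163). These genes are neighbours in the order Ccl5, Ccl9, Ccl6, Ccl3, Ccl4 on chromosome 11, and the other 4 of this run fell.

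The promoters of this neighbouring pair are shown because 1 of the genes fell and the other did not pass. Here and below the 250 bases before the start are from RefSeq (GRCm38.p6), 5′ to 3′ on the strand of the gene, with matches to the motifs of AP-1 (TGANTCA), of the interferon response (GAAANNGAA) and of NF-kB in capitals, searched on both strands. Ccl9 (chr11:83578637-83578886, minus strand) held an AP-1 and an NF-kB match, and Ccl6 (chr11:83593088-83593337, minus strand) held none.
Ccl9: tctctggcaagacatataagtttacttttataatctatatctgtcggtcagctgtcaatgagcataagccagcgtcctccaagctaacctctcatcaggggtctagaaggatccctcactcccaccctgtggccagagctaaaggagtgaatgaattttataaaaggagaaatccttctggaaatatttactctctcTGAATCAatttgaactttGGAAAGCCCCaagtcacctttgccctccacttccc
Ccl6: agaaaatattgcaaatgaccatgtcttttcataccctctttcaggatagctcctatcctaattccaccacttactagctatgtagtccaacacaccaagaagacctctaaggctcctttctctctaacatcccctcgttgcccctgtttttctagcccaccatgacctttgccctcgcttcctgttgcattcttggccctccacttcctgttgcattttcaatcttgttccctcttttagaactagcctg

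Cx3cl1 encodes fractalkine, the membrane-bound ligand of CX3CR1. Its ratio was 0.18 in mouse 1, below 0 in the other mice (-0.80, -0.50 and -0.40) and -0.21 in the swapped pool. The difference of -0.30 (95% interval -0.67 to 0.08) did not pass. Without mouse 1 it was -0.39 and passed (adjusted p = 0.0248).

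All 6 tested ligands that act on lymphocytes fell, where 15.4% of all features did. Ccl5, the T cell and monocyte attractant also called RANTES, had the lowest fitted difference of the tested members, with ratios of -2.41, -1.88, -2.18 and -1.38 in mice 1 to 4 and of -1.77 in the swapped pool. Its signals were 716 to 1612 in the Fra-1hep channel and 3741 to 4369 in the control channel, so the highest Fra-1hep liver was far below the lowest control reading. The fitted difference was -1.87 ± 0.17, 3.65-fold lower (adjusted p = 0.000594). The rank depends on the processing: with processed signals Ccl5 was at -1.92, above Ccl7 (-3.40), Ccl3 (-3.02), Ccl8 (-2.47) and Ccl2 (-1.94). With only the constant left out, Ccl5 and Ccl8 both lay at -1.91, below Ccl2 (-1.83), Ccl7 (-1.80) and Ccl3 (-1.35).

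Cxcl9 and Cxcl10, the interferon-inducible ligands of CXCR3, followed. Cxcl9 gave -2.43, -1.98, -1.87 and -1.08 in mice 1 to 4, with -1.36 in the swapped pool, and it fell by 1.60 (SE 0.21, adjusted p = 0.00267). Its other probe gave a difference of -1.45 (adjusted p = 0.00172). Cxcl10 gave -1.14, -1.52, -1.81 and -0.91 in the 4 mice with -1.49 in the swapped pool, and it fell by 1.42 (SE 0.15, adjusted p = 0.00128). Both genes were least lowered in mouse 4, and neither gene's channels overlapped: Fra-1hep signals were 365 to 826 for Cxcl9 and 348 to 651 for Cxcl10, with control signals of 1540 to 1965 and 1195 to 1316. The deepest ratio was in mouse 1 for Cxcl9 and in mouse 3 for Cxcl10.

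The promoters of these ligands are shown for their matches to the interferon response motif. Cxcl9 (chr5:92328080-92328329, minus strand) held 1, which ends 167 bases before the start. Cxcl10 (chr5:92348890-92349139, minus strand) held 1 interferon response match, 2 NF-kB matches and 1 AP-1 match.
Cxcl9: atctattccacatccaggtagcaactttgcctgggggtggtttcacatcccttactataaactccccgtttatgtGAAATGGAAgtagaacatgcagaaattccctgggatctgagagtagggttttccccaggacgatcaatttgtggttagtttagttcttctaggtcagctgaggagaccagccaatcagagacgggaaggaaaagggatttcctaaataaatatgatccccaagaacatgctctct
Cxcl10: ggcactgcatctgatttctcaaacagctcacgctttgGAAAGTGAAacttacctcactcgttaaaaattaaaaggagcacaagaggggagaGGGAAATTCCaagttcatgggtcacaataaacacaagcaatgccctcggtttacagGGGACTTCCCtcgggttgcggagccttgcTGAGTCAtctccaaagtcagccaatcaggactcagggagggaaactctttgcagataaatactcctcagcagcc

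RefSeq promoters were found for 27 of the 38 genes, 29 promoters in all, and none was in the table for Ccl2, Ccl4, Ccl5, Ccl7, Ccl11, Ccl24, Cxcl5, Cxcl11, Cxcl16, Ccr7 and Cxcr5. The interferon response letters occurred in 5 of the 29, those of Ccl3, Ccr2, Cxcl9, Cxcl10 and Cxcl14, and in 7.13% of 32851 promoters of all genes. Each of these 5 genes fell. The letters were thus in 5 of 10 promoters of members that fell and in 0 of 18 of members that did not pass or were not tested. The AP-1 letters occurred in 3 of the 29 (Ccl9, Ccr3 and Cxcl10) and in 6.75% of all promoters. In the same groups they were in 1 of 10 and 2 of 18. NF-kB matches occurred in 6 of the 29 (Ccl9, Ccr3, Ccr6, Cxcl1, Cxcl2 and Cxcl10) and in 3.9% of all promoters. They were in 1 of 10, in 4 of 18 and in the promoter of Cxcl1. Only 10 of the 17 called genes had a promoter here, and the differences in these shares were not tested. A match describes letters in this window and was not tested as a binding site.

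The other lymphocyte ligands fell by less. Cxcl16 encodes the membrane-bound ligand of CXCR6. Its ratios were -0.58, -0.50, -0.64 and -0.77 in mice 1 to 4, with -0.99 in the swapped pool, and it fell by 0.81 (SE 0.07, adjusted p = 0.000393). Ccl25, the gut and thymus ligand of CCR9, gave -0.50, -0.24, -0.36 and -0.32 in the 4 mice with -0.61 in the swapped pool, and it fell by 0.48 (SE 0.06, adjusted p = 0.00277). For both, all Fra-1hep signals lay below all control signals.

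Cxcl13, the B cell attractant of lymphoid follicles, had the largest adjusted p of the falls. Its ratio was -1.63 in mouse 1, 0.00 in mouse 2, -0.71 in mouse 3, -0.81 in mouse 4 and -0.89 in the swapped pool, so mouse 2 overlapped the control pool. The difference of -0.84 ± 0.25 had an adjusted p of 0.0473. It did not pass without mouse 3 (adjusted p = 0.0801), without mouse 4 (0.0915), where the probes of each gene were averaged (0.0518), with no constant added (0.0695) or with the standard error enlarged as for Ccl3 (0.134). The difference was -1.92 with processed signals and did not pass there either (adjusted p = 0.08). The remaining ligands of this class, Ccl17 and Ccl22, lay at background, with ratios between -0.14 and 0.23 for both.

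Cxcl1 was the only tested member that rose. It encodes a neutrophil attractant that acts through CXCR2. Ratios were 0.58, 2.84, 1.57 and 1.57 in mice 1 to 4, with 1.63 in the swapped pool. The Fra-1hep signals were 1217, 4421, 2140 and 2007 in mice 1 to 4 and 2178 on the swapped array, all above the control signals of 617 to 813. Mouse 2 was the highest and mouse 1 the lowest, and the spread between mice (SD 0.93 on the log2 scale) was the widest of the members. The fitted difference was 1.63 ± 0.34, 3.11-fold higher (adjusted p = 0.0145). It was 1.43 without mouse 2 and 1.81 without mouse 1. With the standard error enlarged for the pooled controls Cxcl1 did not pass (adjusted p = 0.0531).

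**Figure D2:**
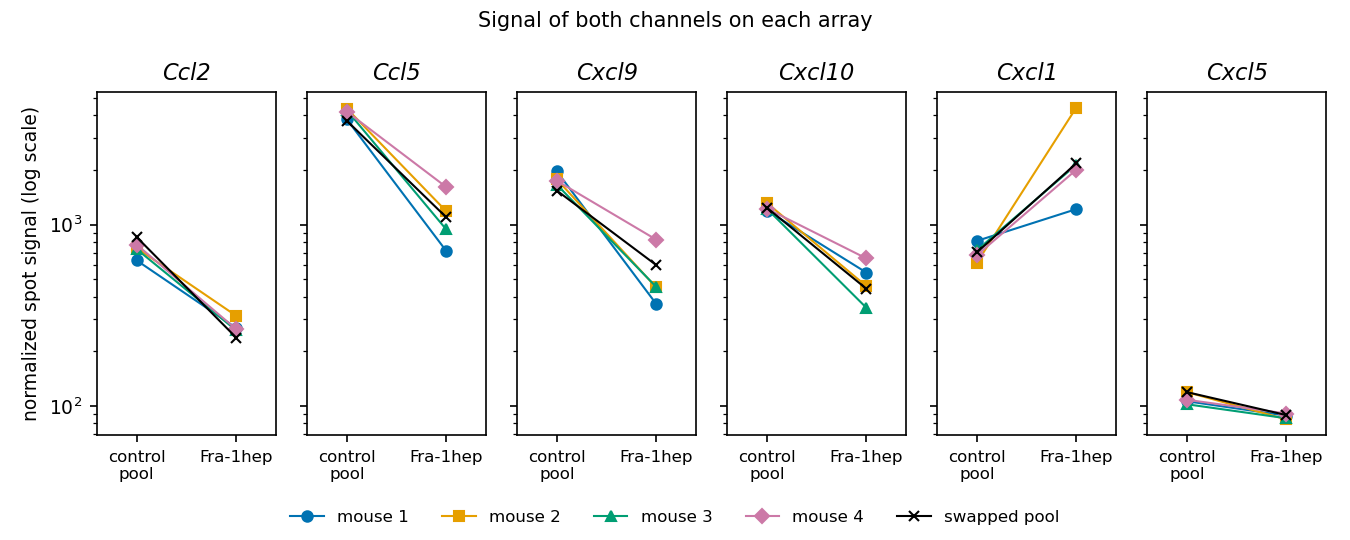
Normalized spot signal (y axis, log scale) of the control pool and of Fra-1hep RNA on each array for Ccl2, Ccl5, Cxcl9, Cxcl10, Cxcl1 and Cxcl5. Each line joins the channels of 1 array. Lines fall for Ccl2, Ccl5, Cxcl9 and Cxcl10 and rise for Cxcl1, steepest in mouse 2, and those of Cxcl5 stay near background.

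Of the other neutrophil ligands, Cxcl5 fell and Cxcl2 was too dim to be tested. Cxcl5 gave -0.26, -0.50, -0.26 and -0.25 in mice 1 to 4, with -0.42 in the swapped pool, and fell by 0.37 (SE 0.07, adjusted p = 0.00925). Its Fra-1hep signal passed the background test on 1 of 5 arrays, and the difference was -1.59 with processed signals. Cxcl2 was well above background on 1 of 5 arrays in the Fra-1hep channel and on none in the control channel. Its ratios were 0.24, 0.50, 0.32 and 0.28 in mice 1 to 4, with 0.15 in the swapped pool, all above 0 and highest in mouse 2 like those of Cxcl1. With no filter on dim probes Cxcl2 was called higher by 0.24 (adjusted p = 0.0376), a value drawn from background-level signals. Cxcl5, Cxcl1 and Cxcl2 belong to 1 run of neighbours on chromosome 5, with Ppbp, Pf4, Cxcl3 and Cxcl15 between Cxcl5 and Cxcl1.

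The promoters of Cxcl1 and Cxcl2 are shown because both held the same NF-kB match while only Cxcl1 was bright enough to be tested. Cxcl1 (chr5:90890995-90891244, plus strand) and Cxcl2 (chr5:90903649-90903898, plus strand) each held it, read on both strands with an overlap.
Cxcl1: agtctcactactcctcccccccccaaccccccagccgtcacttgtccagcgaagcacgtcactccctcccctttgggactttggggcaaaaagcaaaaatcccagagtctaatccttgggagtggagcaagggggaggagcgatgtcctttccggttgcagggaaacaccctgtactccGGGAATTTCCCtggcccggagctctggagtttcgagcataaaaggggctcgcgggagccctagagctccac
Cxcl2: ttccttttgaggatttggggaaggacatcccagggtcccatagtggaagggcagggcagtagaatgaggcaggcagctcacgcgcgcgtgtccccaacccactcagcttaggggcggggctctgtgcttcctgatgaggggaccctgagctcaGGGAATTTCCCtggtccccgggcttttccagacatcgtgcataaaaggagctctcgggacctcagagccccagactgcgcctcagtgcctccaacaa

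Of the eosinophil attractants, Ccl11 was at background and Ccl24 did not pass. Ccl24, which encodes eotaxin-2, gave -0.23, 0.80, 0.38 and -0.22 in mice 1 to 4, with 0.41 in the swapped pool, a difference of 0.30 (95% interval -0.15 to 0.75). Its signals overlapped those of the control pool, with mouse 2 highest.

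Among the ligands with other targets, Cxcl14, an epithelial chemokine, gave -0.88, -0.51, -0.54 and -0.98 in mice 1 to 4, with -0.77 in the swapped pool. Cxcl14 fell by 0.75 (SE 0.10, adjusted p = 0.00283), with no overlap between channels. Cxcl12, the homeostatic ligand of CXCR4, had signals of 17190 to 19484 in Fra-1hep and 13557 to 19550 in control, which overlapped. Its difference was 0.05 (95% interval -0.17 to 0.27) and -0.05 at its other probe, and neither passed. Xcl1, a T and NK cell product that attracts cross-presenting dendritic cells, was near background at 0.05 (95% interval -0.09 to 0.19).

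Set beside each other array by array, the median of the neutrophil ligands lay above 0 and those of the monocyte and lymphocyte ligands below it. The median ratio over the 8 monocyte ligands was -1.19, -0.79, -0.85 and -0.62 in mice 1 to 4, with -0.98 in the swapped pool. Of these 8, Ccl3 and Ccl7 passed the filter through the control channel alone. Over the 6 lymphocyte ligands it was -1.39, -1.01, -1.26 and -0.86 in the 4 mice with -1.18 in the swapped pool. Over the neutrophil ligands, which were Cxcl1 and Cxcl5 alone, it was 0.16, 1.17, 0.66, 0.66 and 0.61. The mean over the 4 mice was -0.86 ± 0.24 (SD, n = 4) for monocyte ligands, -1.13 ± 0.24 for lymphocyte ligands and 0.66 ± 0.41 for neutrophil ligands. Which of the lower classes lay lowest depended on the processing. The mean over the mice was -1.77 for monocyte and -1.51 for lymphocyte ligands with processed signals, -0.75 and -0.67 with no filter on dim probes, and -0.86 and -0.79 without Ccl3, Ccl4 and Ccl5. The value of the neutrophil class is Cxcl1's: with processed signals, where Cxcl5 lies lower, it was 0.19, and where only Cxcl1 passed a stricter filter it was 1.64.

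**Figure D3:**
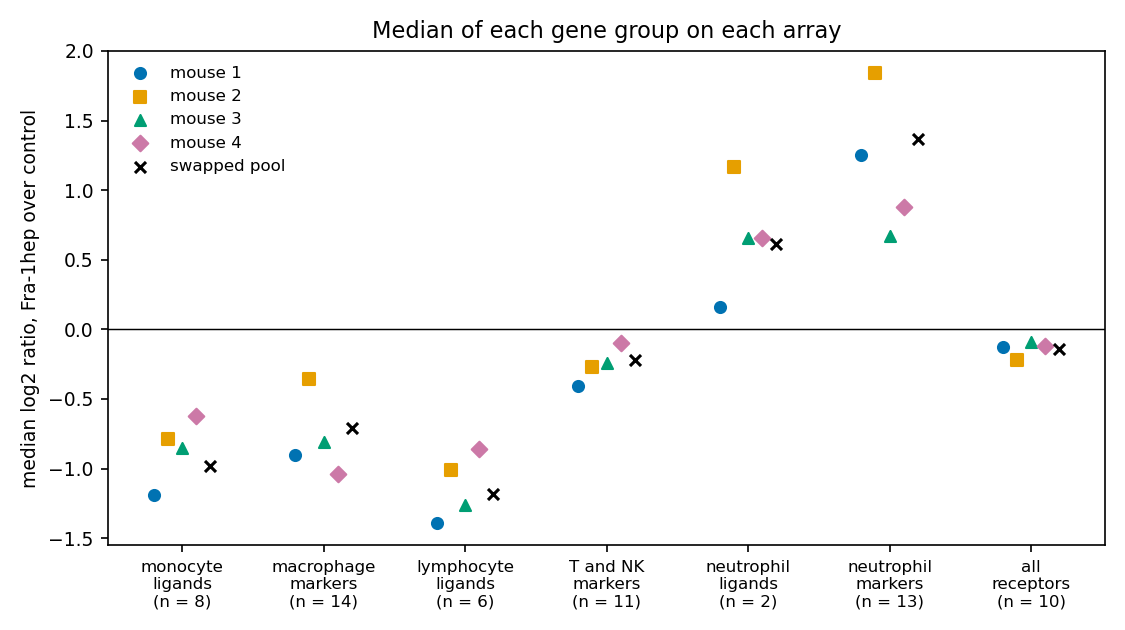
Median log2 ratio of Fra-1hep over the control pool (y axis) for ligand classes, receptors and marker lists of the matching cells (x axis, n genes each) on each array. The medians of monocyte and lymphocyte ligands lie below 0 on all 5 arrays. The median of the neutrophil pair lies above 0, though Cxcl5 of that pair was below 0 on all 5. The median of the neutrophil markers is also above 0 on all 5.

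Whole liver was measured, so fewer cells of a type and less RNA per cell cannot be told apart. Markers of monocytes and macrophages were mostly lower, as the monocyte ligands were: 11 of 14 tested fell, where 15.4% of all features did. The medians of these markers were -0.90, -0.36, -0.81, -1.04 and -0.71 on the 5 arrays. Their summed signal was 24983 to 36900 in the Fra-1hep channel and 41167 to 46179 in the control channel. Each of the 14 was well above background in both channels on some array. A gene among the 11 that fell was so in Fra-1hep on only 1 of 5 arrays, and it passed the filter through the control channel alone. Trem2 (-0.86) and Itgax (-1.28) were among the 11 that fell. Itgam, also called lower (-0.22), had ratios of 0.05 to 0.22 in the 4 mice and of -0.57 on the swapped array. The order of the mice differed between markers and ligands. Mouse 4 had the lowest marker median (-1.04) and the monocyte ligand median nearest 0 (-0.62). Mouse 1 had the lowest monocyte ligand median (-1.19). Beside the same 15.4% of all features, 2 of 6 Kupffer cell markers fell (Cd5l and Clec1b, the latter at -0.75) and 4 did not pass. Those 4 were Marco at -0.78 and Clec4f (0.07), Vsig4 (0.05) and Timd4 (0.13), slightly above 0. The summed signal of the 6 was 14939 to 38554 in Fra-1hep against 34101 to 42599 in control, which overlapped. Cd5l, the brightest of the 6, weighs most in these sums. In mouse 2 the Kupffer median was 0.44 where the other mice lay from -0.84 to -0.28. Among the 4 mice, mouse 2 also had the highest ratio in members of several classes, such as Ccl6, Ccl4, Cxcl13, Ccl25, Cxcl1, Ccl24, Cxcl14 and Ccr2. It had the lowest ratio in others, such as Cx3cl1, Cxcl5 and Cx3cr1. The part of these cells in the ligands was not tested.

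Markers of T and NK cells, set beside the lymphocyte ligands, were lower in 5 of 11 cases, with medians of -0.41, -0.27, -0.24, -0.10 and -0.22 on the 5 arrays. The counts of this paragraph stand beside 15.4% of all features that fell and 11.2% that rose. Lck (-0.39) and Cd3d (-0.39) fell, 1 of the 11 failed the background test in Fra-1hep on all arrays, and the summed signals overlapped, at 5633 to 8781 in Fra-1hep and 5710 to 9376 in control. Of 4 dendritic cell markers 1 fell, of 5 B cell markers 1 fell and of 3 eosinophil markers 1 rose and 1 fell. The summed signals of all 3 lists overlapped between the channels. Of 9 stellate cell markers 7 fell, with summed signals of 15905 to 20099 in Fra-1hep against 34100 to 44180 in control, and of 7 endothelial markers 3 fell, with 12468 to 17169 against 17875 to 19768. All 3 erythroid markers fell (46500 to 68564 against 75193 to 96063), the 5 cholangiocyte markers did not pass, and of 10 hepatocyte markers 3 rose and 1 fell. The part of these cells was not tested.

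Most neutrophil markers were higher, as Cxcl1 was: 10 of 13 rose, where 11.2% of all features did. The others did not pass: Elane (0.26), Csf3r (-0.12) and Fpr1 (-0.47), the last below 0 on all 5 arrays. Mpo, a granule enzyme of young neutrophils, was higher by 2.74 ± 0.22 and S100a8, a calcium-binding protein of the neutrophil cytosol, by 2.60 ± 0.29. The list's medians were 1.25, 1.84, 0.67, 0.88 and 1.37 on the 5 arrays, highest in mouse 2 like Cxcl1. The order then differed, since mouse 1 had the lowest Cxcl1 of the 4 and the second-highest marker median. The summed signal was 46038 to 82293 in the Fra-1hep channel and 28636 to 34617 in the control channel, where 2 of the 13 were not well above background on any array. Both were among the 10 that rose, and they passed the filter through the Fra-1hep channel alone. Csf3r, the brightest of the 13 in the control channel, weighs most in the control sum. Whether the Cxcl1 signal and neutrophils are linked was not tested.

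Of the receptors, Ccr2 and Ccr7 fell. Ccr2, the receptor for CCL2 on inflammatory monocytes, gave -0.62, -0.41, -0.53 and -0.69 in mice 1 to 4, with -0.54 in the swapped pool. Its signals were 106 to 120 in Fra-1hep and 154 to 184 in control, with no overlap. The difference was -0.55 ± 0.07 (adjusted p = 0.00205), and -1.18 with processed signals. Ccr7, which guides dendritic cells and naive T cells to lymph nodes, gave -0.81, -0.84, -0.65 and -0.65 in the 4 mice with -0.46 in the swapped pool, and it fell by 0.60 (SE 0.06, adjusted p = 0.00107). Its channels did not overlap either, at 149 to 184 against 252 to 288.

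**Figure D4:**
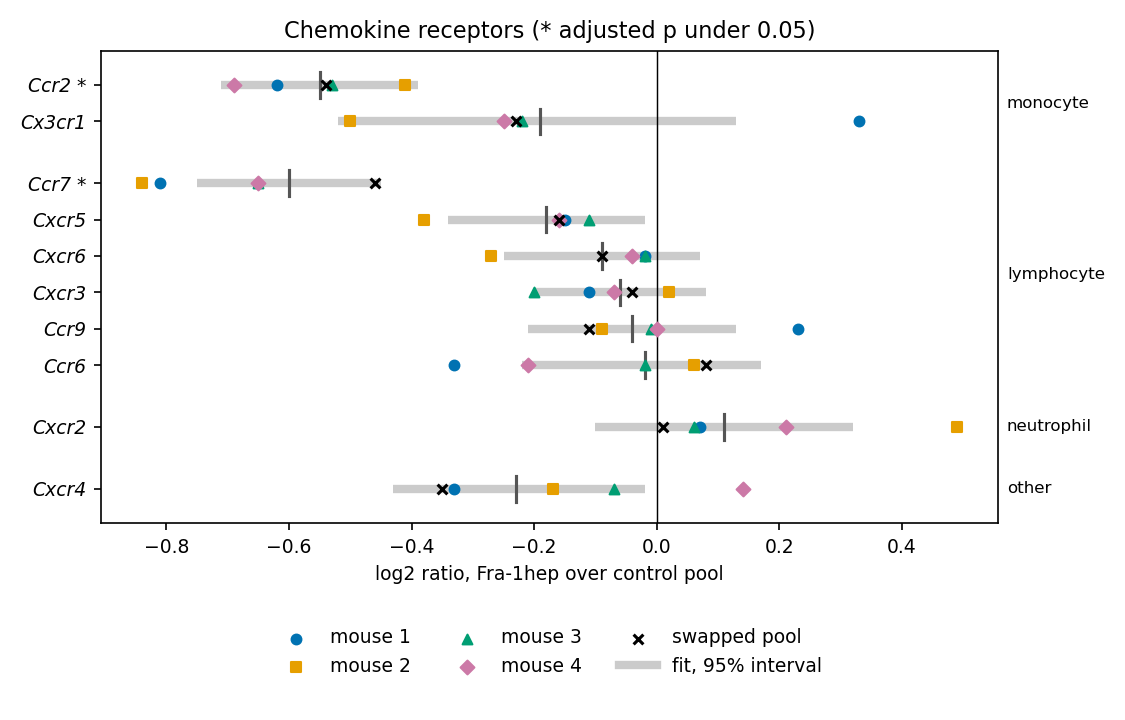
Log2 ratio of Fra-1hep over the control pool (x axis) for the 10 tested chemokine receptors (y axis), grouped by target cell. Symbols are the 5 arrays, ticks the fitted difference and grey bars its 95% interval; asterisks mark an adjusted p under 0.05. Ccr2 and Ccr7 lie left of 0 on all 5 arrays, and the intervals of Cxcr5 and Cxcr4 end at -0.02, though neither passed after adjustment.

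The receptors of lymphocytes other than Ccr7 stayed near 0. Cxcr3, the receptor of CXCL9 and CXCL10, gave -0.11, 0.02, -0.20 and -0.07 in mice 1 to 4, with -0.04 in the swapped pool, a difference of -0.06 (95% interval -0.20 to 0.08). Cxcr6, the receptor of CXCL16, lay at -0.09 (95% interval -0.25 to 0.07) and at -0.08 with its other probe. Ccr6, the receptor of CCL20, lay at -0.02 (-0.22 to 0.17) and Ccr9, the receptor of CCL25, at -0.04 (-0.21 to 0.13). Cxcr5, the follicular receptor of CXCL13, was well above background on all 5 arrays in the control channel and on none in the Fra-1hep channel. Its difference of -0.18 (95% interval -0.34 to -0.02) did not pass (adjusted p = 0.0878). Set against the floor as for Ccl3, its level was 1.15-fold lower, which is not a minimum. Cxcr5 was called lower, at -0.20 each time, when the swapped array was left out (adjusted p = 0.0375) and when no dye term was fitted (adjusted p = 0.0386).

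The monocyte receptor Cx3cr1 gave 0.33 in mouse 1, -0.50, -0.22 and -0.25 in the other mice and -0.23 in the swapped pool, a difference of -0.19 (95% interval -0.52 to 0.13) that did not pass. Without mouse 1 it was -0.27 and passed (adjusted p = 0.0428), and its other probe gave -0.33 (adjusted p = 0.0377 over all probes). Mouse 1 was thus the exception for both Cx3cl1 and its receptor. The array of mouse 1 was the only one on its slide, so slide and mouse cannot be told apart.

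Cxcr2, the neutrophil receptor of CXCL1, was dim: it passed the background test on 3 of 5 arrays in Fra-1hep and on 1 in control. Its ratios were 0.07, 0.49, 0.06 and 0.21 in mice 1 to 4, with 0.01 in the swapped pool, all above 0 and highest in mouse 2. The difference of 0.11 (95% interval -0.10 to 0.32) did not pass. With processed signals it was 1.17 and passed (adjusted p = 0.0483). Cxcr4, the receptor of CXCL12, lay at -0.23 (adjusted p = 0.0979), with a ratio above 0 in mouse 4 alone, and at -0.73 with processed signals (adjusted p = 0.0384). Ccr1 and Ccr3 were not tested: Ccr1 failed the background test in both channels on all 5 arrays, and Ccr3 passed it in the control channel of 1.

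Ligands and their receptors stood at different distances from 0. Ccl2 lay at -1.61 beside -0.55 for Ccr2, Cxcl9 and Cxcl10 at -1.60 and -1.42 beside -0.06 for Cxcr3, and Cxcl16 at -0.81 beside -0.09 for Cxcr6. Ccl25 lay at -0.48 beside -0.04 for Ccr9, and Cxcl12 at 0.05 beside -0.23 for Cxcr4. The differences between ligand and receptor were not tested. With processed signals, to which no constant was added, the values were -1.94 for Ccl2 beside -1.18 for Ccr2, and -1.71 for Cxcl9 and -1.54 for Cxcl10 beside -0.16 for Cxcr3. The SD of log2 signal over the 4 mouse arrays had a median of 0.22 over the 30 members in the Fra-1hep channel, where each array held another mouse. It was 0.11 in the control channel, where the same pool was hybridised each time and the spread is technical alone. The Fra-1hep SD was the larger in 22 of the 30.

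Of 22 further chemokine system genes, 11 were bright enough to be tested. Of the 11, 6 fell, 2 rose and 3 did not pass, where 15.4% of all features fell and 11.2% rose. Ppbp and Pf4, chemokines stored in platelet granules, were the 2 that rose. Ppbp gave 1.19, 1.29, 0.53 and 1.02 in mice 1 to 4, with 1.58 in the swapped pool (1.29 ± 0.13, adjusted p = 0.00101). Pf4 gave 0.69, 0.84, 0.07 and 0.47 in the 4 mice with 0.42 in the swapped pool (0.47 ± 0.13, adjusted p = 0.0396), a call that ended without mouse 1 (0.065) or mouse 4 (0.0752), with processed signals (0.0763), with array weights (0.0522), with no constant added (0.0654) or with the enlarged standard error (0.117). Each of the 3 platelet markers tested rose too, Itga2b by 0.34, Gp1ba by 0.52 and Gp9 by 0.46, with summed signals of 343 to 473 in Fra-1hep and 280 to 333 in control. Gp1ba was not well above background in the control channel of any array, so it passed the filter through the Fra-1hep channel alone. The part of platelets in Ppbp and Pf4 was not tested.

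Those that fell changed little and had several roles. Among them were the lymph node ligands Ccl21a (-0.40) and Ccl19 (-0.32), both read by CCR7, the epithelial ligand Ccl27a (-0.28) and the atypical receptors Ackr2 (-0.33), a scavenger of CC chemokines, and Ccrl2 (-0.36, adjusted p = 0.00839). Ackr1, a chemokine-binding protein of venules and red cells, lay at -0.64 and did not pass (adjusted p = 0.0552). Ackr1 passed at -0.76 without mouse 2 (adjusted p = 0.00653), and at -0.63 without the swapped array (0.033), with no dye term (0.0165) or with array weights (0.0459). Ccl27a did not pass without the swapped array (-0.14, adjusted p = 0.0569), with processed signals (0.0982) or with the mean of its probes (0.0546). Ccl19 did not pass with processed signals (adjusted p = 0.0684) or the enlarged standard error (0.0654), nor Ackr2 with the latter (0.0577). Pf4, Ccl19, Ccl27a, Ackr2 and Ackr1 were chosen for mention after their values were seen. Ccl21a and Ccl27a have near-identical copies in the mouse genome, so their probes may read several genes.

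Genes that carry the receptor signal inside leukocytes were lower in 12 of 28 cases, higher in 1 and not past the test in 15. The 1 that rose passed the filter through the Fra-1hep channel alone. Over all features, 15.4% fell and 11.2% rose. Those with roles in Rac activation and actin were lower in 5 of 6 cases. Gng2, a G protein gamma subunit, fell by 0.58 (SE 0.07), Rgs1, which ends G protein signalling, by 1.09 (SE 0.16) and Gnai2, an inhibitory G protein alpha subunit that chemokine receptors signal through, by 0.37 (SE 0.07). Prex1, an activator of Rac, fell by 0.41 (SE 0.08). Several of these genes are leukocyte genes, like the macrophage markers given above, and the part of cell number in them was not tested.

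Of 27 tested genes that control the induction of chemokines, 11 fell, 2 rose and 14 did not pass, where 15.4% of all features fell and 11.2% rose. The 27 include 4 inhibitors, of which 2 fell. Relb, an NF-kB subunit, fell by 0.91 (SE 0.07, adjusted p = 0.000343) with ratios from -1.07 to -0.77 on the 5 arrays. Nfkbia, the NF-kB inhibitor that NF-kB itself induces, fell by 0.71 (SE 0.09, adjusted p = 0.00206). Jun, a partner of Fra-1 in AP-1, gave -1.06, -0.53, -1.47 and -1.53 in mice 1 to 4, with -1.63 in the swapped pool, and fell by 1.39 (SE 0.18, adjusted p = 0.00224). Cd14, the lipopolysaccharide co-receptor, fell by 0.83 (SE 0.12, adjusted p = 0.00366). The inflammatory cytokine genes Tnf (-0.13, adjusted p = 0.126), Il1b (-0.55, adjusted p = 0.0606) and Ifng (-0.07, adjusted p = 0.372) were picked with their values in view, and all missed the threshold. In Fra-1hep, Tnf passed the background test on none of the arrays and Ifng on 1 of 5.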

How the data were processed

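Liver RNA of 4 Fra-1hep mice, 1 Fra-1hep pool and 1 control pool of 5 mice was measured on 5 two-channel Agilent arrays. Per the labels' protocols, the RNA integrity score exceeded 7.8 and 100 ng of RNA went into labelling. The authors extracted spot intensities with Agilent Feature Extraction, given as 10.7 in the submitters' processing notes and as 10.7.3.1 in the headers. Per the file headers, the deposited files give median signal intensities, local backgrounds, processed signals, the log10 Cy5 over Cy3 ratio and background flags. The deposited values of the whole series are log2 ratios: regressed on the scanner ratios, the mouse columns have a slope of 1 and the swapped column of -1. They were not centred (medians from -0.04 to 0.13), and how they were made is otherwise not stated.

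Median signals were corrected with normexp (offset 50) and normalized by loess within arrays, with 177 outlier spots and the control spots at weight 0. No spot was saturated. Probes were named by accession in a RefSeq gene table of GRCm38.p6, used for names and gene order only, which named 26056 of 55681 probes. A probe was kept where either channel was well above background on at least 3 arrays, with each gene represented by its brightest kept probe. Limma (version 3.58.1, R 4.3.3) fitted a genotype and a dye term, with 3 residual and 4.02 prior degrees of freedom. The swapped array weighs as much as the 4 mice together. P-values were adjusted by Benjamini-Hochberg. The number of arrays limits the precision, with a median standard error of 0.0662 over all features. The fit was tested on simulated data. Chromosome order came from RefSeq, and the build in the array headers differs from it, so no array coordinate is printed.

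The members and all other lists were chosen with earlier results of these data known. All members with a probe were to be named, and of each other list the up to 4 tested genes with the smallest p. Alternatives covered the dye term, the swapped array, each mouse, the slide, background correction, centring, filters, probe choice, array weights and the spread of the pooled control mice. 1 further gene of these lists is not reported here.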

Additional observations from a re-analysis of the deposited data

Results flagged for a closer look

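Among the 4 mice, 1 stood apart from the others in 2 of the 30 tested members, where chance flags about 1 in 20. Cxcl5 lay at -0.50 in mouse 2 and between -0.26 and -0.25 in the other mice, on a probe whose Fra-1hep channel was well above background on 1 of 5 arrays. Cxcr6 lay at -0.27 in mouse 2 and between -0.04 and -0.02 in the other mice, and its other probe gave -0.16 in mouse 2 and -0.17 to 0.03 elsewhere among the mice.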

How the results depend on the processing

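Each of the 30 tested members was refitted under the alternatives, 470 values in all. In 440 both direction and side of the threshold were kept, in 9 the threshold was lost and in 11 gained; 17 members kept both throughout. The sign turned in 10, in 4 members near 0 that passed in neither fit. Xcl1 was at -0.01 with no dye term and -0.04 without the swapped array. Ccr6 ran from -0.05 to 0.01 without each mouse, at 0.01 without mouse 1 or with the slide as a block. Ccr9 was at 0.00 with no dye term, 0.03 without the swapped array and 0.01 with processed signals or deposited values, and Cxcr6 at 0.06 with the latter pair. The ligands called lower numbered 13 to 15 without each mouse in turn and 9 of the 14 that had both channels above background on all arrays. The ligands called higher numbered 2 without the swapped array (with Ccl9), 2 with no filter on dim probes (with Cxcl2) and 0 when the spread of pooled controls was added. The receptors called higher numbered 1 with processed signals or deposited values (Cxcr2). The further chemokine genes called higher numbered 1 to 2 without each mouse, and 1 with the slide as a block, processed signals, offset 0, deposited values, array weights or the pool's spread. Over all features, 1761 were lower and 1085 higher with the pool's spread, and 3641 were higher without the swapped array; without each mouse, 2571 to 3268 were lower and 1710 to 2315 higher. The monocyte class median was -1.77 with processed signals or deposited values and -1.29 with offset 0. The lymphocyte class median was -1.51 with processed signals or deposited values, -1.38 with offset 0, -0.67 with no filter and -0.79 without Ccl3, Ccl4 and Ccl5, so that under these settings except offset 0 it lay above the monocyte median. The neutrophil class median was 0.19 with processed signals or deposited values and 1.64 where both channels had to be above background, since Cxcl1 alone remained. Without each mouse the class medians ran from -0.94 to -0.75, from -1.22 to -1.04 and from 0.49 to 0.83. An offset of 50 shrinks dim ratios by construction; the cause of the other shifts was not tested. Mouse 1 is alone on its slide, so the slide as a block gives the values without mouse 1. No paired analysis was possible because the Fra-1hep mice and the Fra-1hep pool have only the replicate number 1 in common, and each ratio already sets a sample against the control pool on its own array. Signals near background limit Ccl3, Ccl7, Cxcl5, Cxcr2 and Cxcr5.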
